A study of Capra hircus with 9 samples.

Results

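The 48 genes described here encode proteins of the endoplasmic reticulum (ER) folding and secretory pathway. These genes were followed across 3 ages in goat tissue labelled submandibular gland. They were taken by name from a list of this pathway, drawn up with earlier results of these data known, and all 48 were found among the 21358 genes of the deposited table. They hold 111 of its 52739 transcripts, of which 29 were newly assembled. The levels of a gene's transcripts were added up, and a gene's level is given as CPM, the counts scaled to a common library size, with sizes set by the trimmed mean of M values (TMM). No transcript lengths were used, so levels were compared between ages and not between genes.

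Secreted proteins enter the ER through the Sec61 channel while their signal peptide is cut off, they fold there with the help of chaperones and disulfide isomerases, and they leave in vesicles coated by COPII. The unfolded protein response (UPR) is the set of sensors and transcription factors that adjusts this machinery to the load of unfolded protein, and ER-associated degradation (ERAD) removes what fails to fold. Salivary acinar cells, which secrete mucins and salivary enzymes, and plasma cells, which secrete antibodies, are known for an extensive ER.

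The study reports the tissue as submandibular gland of healthy female Lubo goats. There were 3 animals at 1 month, 3 at 12 months and 3 at 24 months of age, with 1 library per goat. No group carried a treatment or a genetic change. The study reports the same raising conditions and free access to food for all goats, and it does not give the diet at each age. Every animal was fasted and given xylazine hydrochloride as the anaesthetic. In such bulk tissue, fewer cells of a type and less RNA per cell cannot be told apart.

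The recovered totals were from 2.01e+07 to 2.63e+07 expected counts per library, and 3 counts corresponded to 0.0835 to 0.174 CPM. Marker genes differed widely between the 1-month libraries. Library 2 of that group nearly lacked the salivary acinar markers, whose 10 genes summed to 108 CPM there against 26303 and 18544 CPM in libraries 1 and 3 and 84514 to 165806 CPM at the older ages. In that library the water channel AQP5 was at 0.491 CPM and the mucin gene MUC19 at 50.6 CPM, while the salivary protein gene PIP was at 0. MUC19 made up most of the acinar sum in every other library, with 23104 and 17005 CPM in libraries 1 and 3 at 1 month. MUC5B, MUC7 and BPIFA1 overlapped between 1 month and the older ages, and the other acinar genes were higher in every older library. All the 1-month libraries held thymocyte markers, of which 7 genes summed to 2551, 8463 and 1212 CPM in libraries 1, 2 and 3, against 2.75 to 10.8 CPM in the older libraries. The thymic epithelium list (5 genes) summed to 173, 701 and 69.1 CPM at 1 month and to 0.936 to 2.55 CPM later. Cell cycle markers (5 genes) were at 798 to 2443 CPM at 1 month and at 9.92 to 34.2 CPM later. Plasma cell markers (6 genes) were at 403, 97.3 and 1053 CPM at 1 month, 2555 to 2916 CPM at 12 months and 858 to 1858 CPM at 24 months. Except in library 2 at 1 month, most of this sum was JCHAIN. JCHAIN was at 346, 3.65 and 847 CPM at 1 month and at 2433 to 2792 CPM at 12 months. TNFRSF17 was also higher in every 12-month library than in every 1-month library, while MZB1, IRF4, PRDM1 and POU2AF1 overlapped between these ages. MZB1 was at 67.2 CPM in library 2 at 1 month and at 18.2 to 25.1 CPM at 12 months. In both comparisons with 1 month all 7 thymocyte, all 4 tested thymic epithelium and all 5 cell cycle genes fell. In both, 3 of 6 B cell genes fell and 3 of 10 acinar genes rose. Of the extracellular matrix list 2 of 5 genes fell by 12 months and 4 of 5 by 24 months, and of the myeloid list 4 and 2 of 5 fell. The plasma cell, duct, myoepithelium, skeletal muscle, adipocyte and endothelium lists had no call, and the erythroid genes were not tested. The part of these other cells in the values below was not tested, and neither was which tissue library 2 at 1 month held. The counts against 1 month are given with and without library 2.

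**Figure D1:**
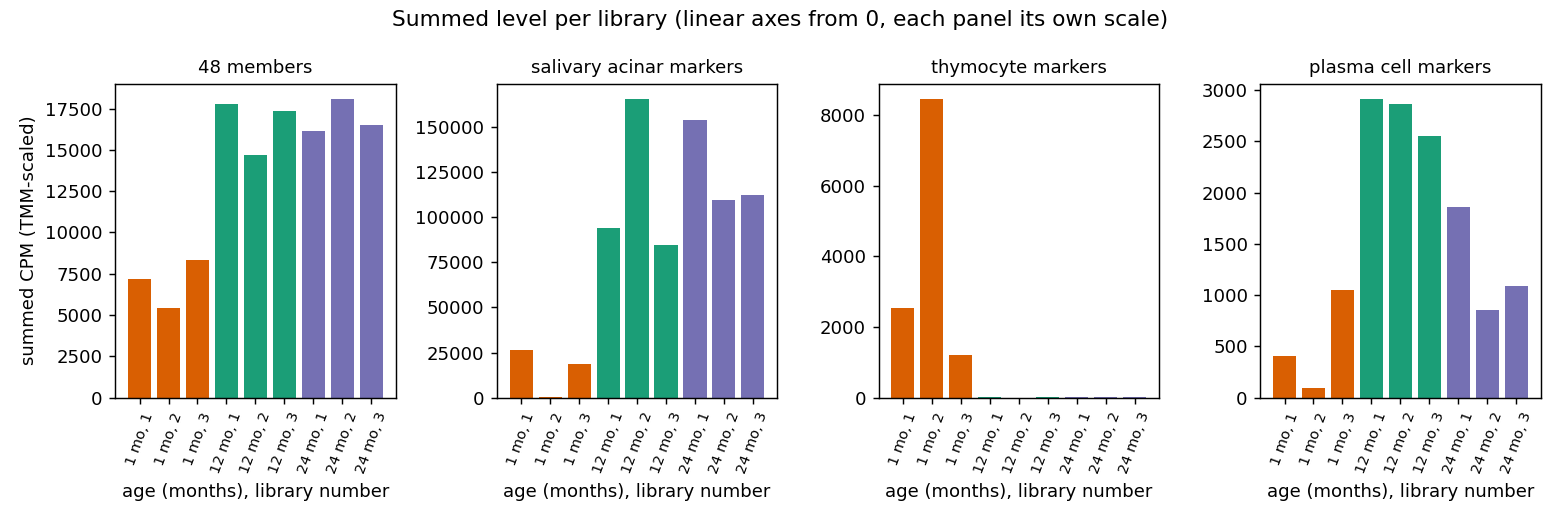
Summed level (CPM, TMM-scaled, linear axes from 0, each panel with its own scale) of the 48 pathway genes and of 3 marker lists in each of the 9 libraries. The pathway genes stand at 5433 to 8304 CPM in the 1-month libraries and at 14674 to 18104 CPM in the others, and library 2 at 1 month is the lowest for the pathway and acinar sums and the highest for thymocyte markers. The acinar sum is mostly MUC19 in every library but library 2 at 1 month.

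The comparison of ages sets the libraries labelled 1 month against those labelled 12 and 24 months. Summed over the 48 genes, the level was 7189, 5433 and 8304 CPM in the 1-month libraries, 17795, 14674 and 17358 CPM in the 12-month libraries and 16155, 18104 and 16480 CPM in the 24-month libraries. All 6 older libraries stood above all 3 young ones, and the older ages overlapped each other. Among the 48 genes, 33 were lowest of all 9 libraries in library 2 of the 1-month-old group and 12 in library 1. The median coefficient of variation of a gene between libraries was 38.7% at 1 month, 11.2% there without library 2, 12.0% at 12 months and 24.3% at 24 months.

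**Figure D2:**
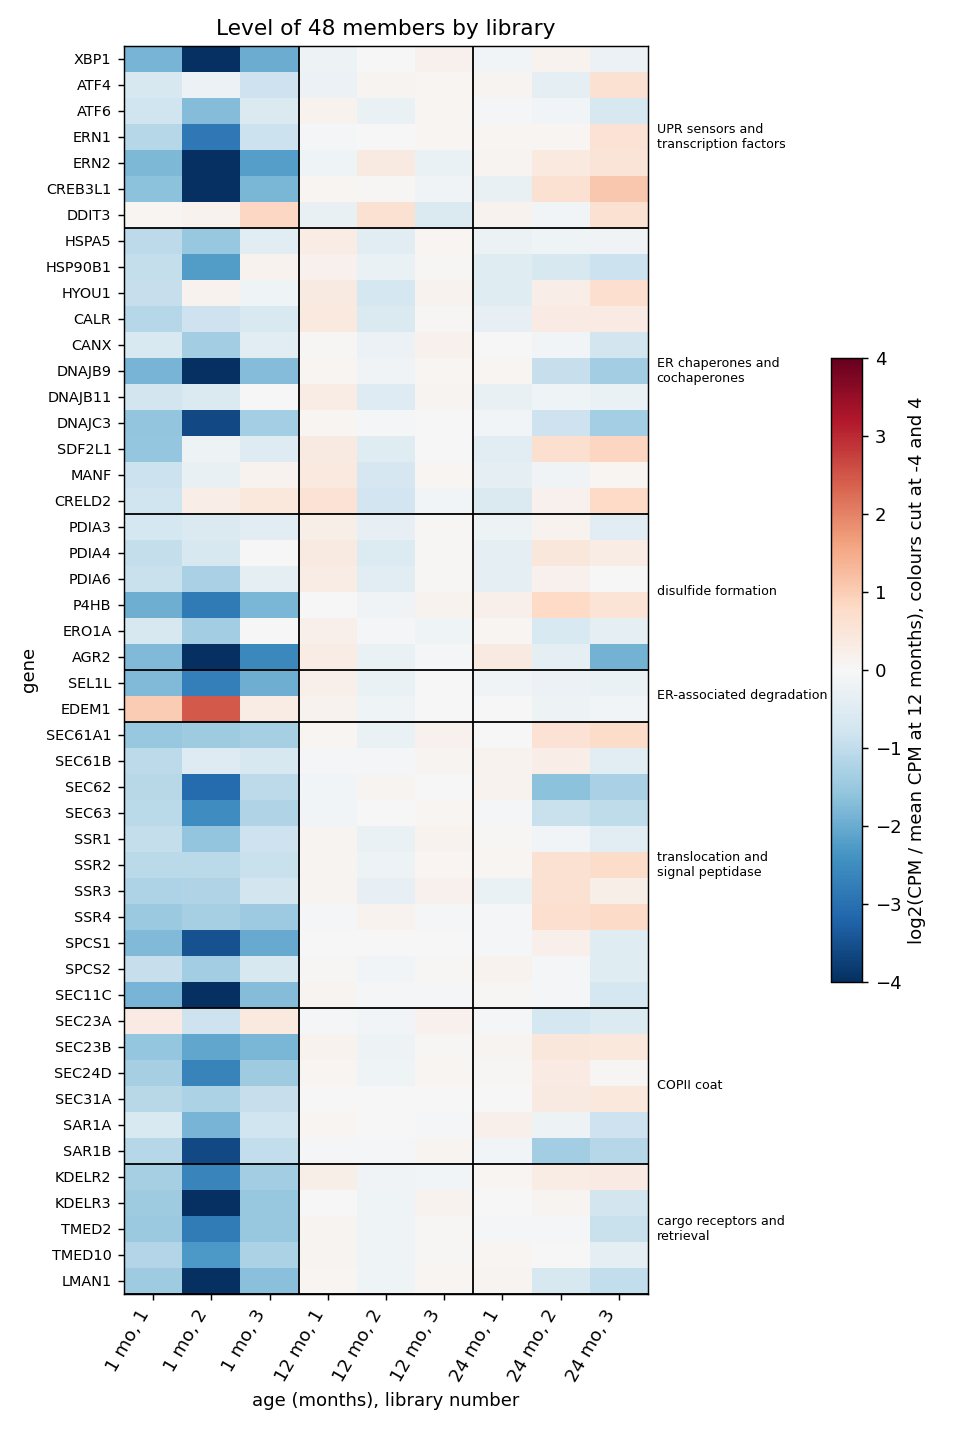
Level of each of the 48 genes (rows, grouped by role) in each of the 9 libraries (columns) as the log2 ratio of its CPM to the mean CPM at 12 months, with colours cut at -4 and 4. Most genes are blue, that is lower, in the 1-month libraries and most strongly so in library 2, while EDEM1 is red in all of them, and DDIT3, HYOU1 and CRELD2 also lie above their 12-month mean in library 2.

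From 1 to 12 months 18 of the 48 genes rose and 0 fell at an adjusted p under 0.05 in edgeR's quasi-likelihood test with Benjamini-Hochberg adjustment over all genes tested. Among all 15068 genes tested, 18.1% were called, 6.15% higher and 12.0% lower at 12 months. The median log2 fold change of the 48 genes was 1.14, against -0.05 for all genes. An unadjusted p under 0.05 was reached by 31 of the 48 genes and by 37.6% of all genes. Of the 18 genes, 5 also passed an absolute log2 fold change of 2, and 11.7% of all genes passed both thresholds. For 35 genes every 12-month library lay above every 1-month library and for 1 gene below, against 26.6% and 27.0% of all genes. Without library 2 of the 1-month-old group, all 18 were among 32 that rose and 0 fell, where 43.7% of all genes were called and 21.1% were higher. The median of the 48 genes was then 0.98. Scaled to total counts, which moved the median of all genes to -0.52, 5 of the 48 genes rose and 1 fell, while 23.4% of all genes were called. The count moved with each library left out, as did the share of all genes called. It was 5 without library 1 and 4 without library 3 of the 1-month-old group, where 13.3% and 11.6% of all genes were called. It was 0 without library 1, 2 or 3 of the 12-month-old group, where 0%, 0.476% and 0.835% of all genes were called and 23 to 27 of the 48 had an unadjusted p under 0.05. The median log2 fold change stayed between 1.10 and 1.33 in those fits.

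From 1 to 24 months 13 genes rose and 0 fell in the same test. Among all 14834 genes tested 17.7% were called, 6.79% higher and 10.9% lower. Both thresholds were passed by 7 of the 48 genes and by 13.4% of all genes. The median log2 fold change was 1.15 for the 48 genes and -0.04 for all genes. An unadjusted p under 0.05 was reached by 24 of the 48 genes and by 34.5% of all genes. In 27 genes the 24-month libraries lay entirely above the 1-month libraries and in 1 gene entirely below, against 20.2% and 23.6% of all genes. Without library 2 of the 1-month-old group all 13 were among 21 that rose, where 29.5% of all genes were called and 14.1% were higher. Scaled to total counts, with the median of all genes at -0.71, 3 rose and 1 fell, while 24.4% of all genes were called. The count was 6 without library 1 and 2 without library 3 at 1 month, where 13.2% and 10.8% of all genes were called, and 8 without library 1 at 24 months, where 9.79% were. It was 0 without library 2 or library 3 at 24 months, where 3.46% and 1.92% of all genes were called and 17 and 21 of the 48 had an unadjusted p under 0.05. The 1-month libraries serve in this comparison and in the one with 12 months, so they are not independent of each other.

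**Figure D3:**
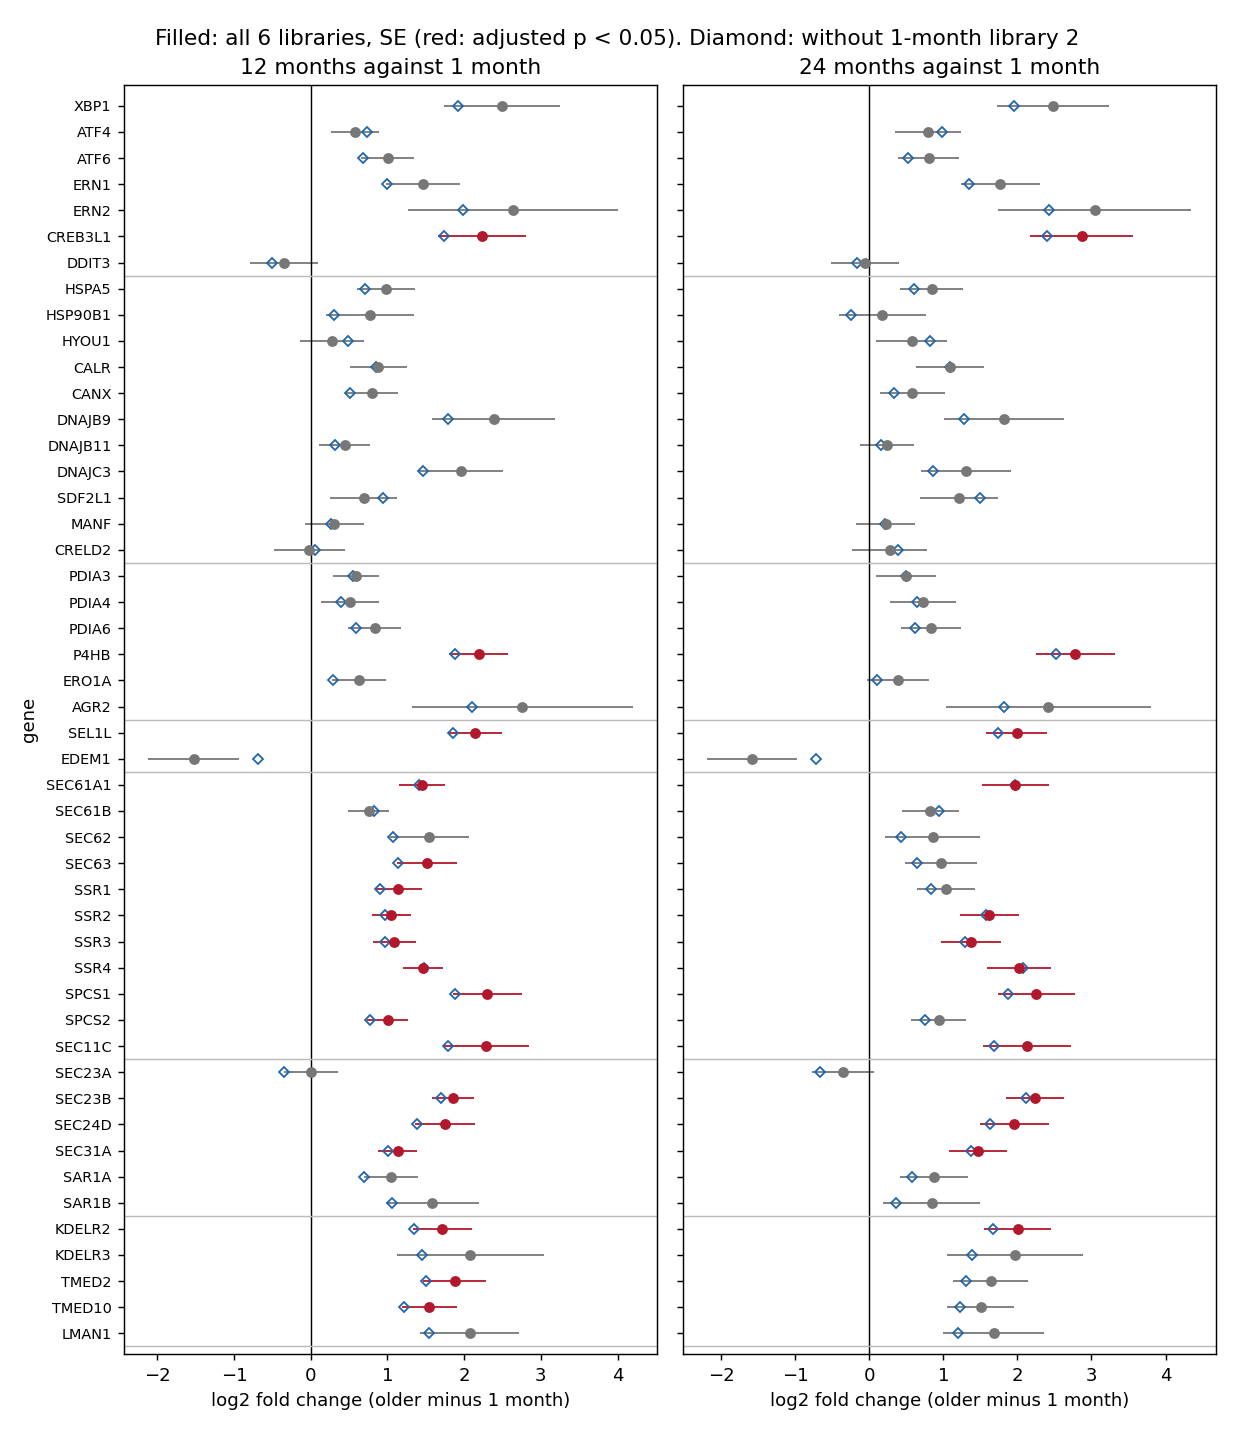
Fitted log2 fold change with its SE of the 48 genes at 12 months (left) and 24 months (right) against 1 month, 3 libraries per age, red where the adjusted p was under 0.05. Diamonds give the value without library 2 of the 1-month-old group, which lies nearer 0 for most genes and keeps the side of 0 for all but SEC23A and CRELD2 at 12 months and HSP90B1 at 24 months.

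Among the sensors and transcription factors of the UPR, edgeR's quasi-likelihood test called 1 of 7 genes higher by 12 months and 1 of 7 by 24 months. DESeq2 called 3 and 4 of the 7 higher, where it called 26.2% and 22.4% of all genes. The exact test of edgeR called 3 and 3 higher, where it called 27.7% and 26.0% of all genes. The medians of the log2 fold changes of the 7 genes in the quasi-likelihood fit were 1.46 and 1.77. CREB3L1, a membrane-bound transcription factor of secretory cells that is released by proteolysis, was at 136, 27.0 and 119 CPM at 1 month, 453, 440.3 and 384 CPM at 12 months and 347, 654 and 893 CPM at 24 months. Its older libraries were all above the young ones. For CREB3L1 the log2 fold changes (± SE, 3 libraries per age) were 2.24 ± 0.57 (adjusted p = 0.0401) from 1 to 12 months and 2.87 ± 0.69 (adjusted p = 0.0268) from 1 to 24 months. XBP1, the factor whose spliced form switches on much of the secretory pathway, was at 261, 28.2 and 236 CPM at 1 month, 827, 927 and 1071 CPM at 12 months and 875, 1037 and 803 CPM at 24 months. The lowest older library of XBP1 exceeded the highest young library, but the young libraries differed widely among themselves. For XBP1 the log2 fold changes of 2.49 ± 0.76 (adjusted p = 0.0628) from 1 to 12 months and 2.49 ± 0.76 (adjusted p = 0.0554) from 1 to 24 months did not pass the test. Without library 2 they were 1.92 (adjusted p = 0.00102) and 1.96 (adjusted p = 0.00449).

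ERN1, the sensor IRE1α that splices the XBP1 transcript, was at 87.3, 26.5 and 105 CPM at 1 month, 182, 194 and 202 CPM at 12 months and 203, 204 and 287 CPM at 24 months. Every older library again exceeded every young one. For ERN1 the log2 fold changes were 1.46 ± 0.48 (adjusted p = 0.0770) from 1 to 12 months and 1.77 ± 0.54 (adjusted p = 0.0547) from 1 to 24 months. ATF6, the sensor that is cleaved in the Golgi into a transcription factor, was at 82.2, 42.8 and 96.0 CPM at 1 month, 157, 119 and 152 CPM at 12 months and 138, 131 and 91.0 CPM at 24 months. ATF6 overlapped between 1 and 24 months but not between 1 and 12 months. For ATF6 the log2 fold changes were 1.00 ± 0.34 (adjusted p = 0.0834) from 1 to 12 months and 0.80 ± 0.41 (adjusted p = 0.207) from 1 to 24 months. ERN2, the IRE1 paralogue known from mucus-secreting epithelia, ranged from 0.0701 CPM in library 2 (under 3 counts) to 31.2 CPM in library 1 at 1 month and from 90.5 to 156 CPM later. For ERN2 the log2 fold changes were 2.64 ± 1.37 (adjusted p = 0.199) from 1 to 12 months and 3.04 ± 1.31 (adjusted p = 0.139) from 1 to 24 months. Without library 2 the ERN2 values were 1.99 (adjusted p = 0.00251) and 2.43 (adjusted p = 0.00171).

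ATF4 and DDIT3 belong to the stress branch of the response. ATF4, translated when the kinase arm of the UPR is active, was at 297, 389 and 258 CPM at 1 month, 396, 501 and 486 CPM at 12 months and 500.4, 355 and 697 CPM at 24 months. For ATF4 the log2 fold changes were 0.58 ± 0.31 (adjusted p = 0.215) from 1 to 12 months and 0.79 ± 0.45 (adjusted p = 0.246) from 1 to 24 months. DDIT3, the pro-apoptotic factor CHOP that ATF4 induces, was at 4.96, 5.22 and 8.43 CPM at 1 month, 3.85, 7.16 and 3.21 CPM at 12 months and 5.23, 4.36 and 7.25 CPM at 24 months. DDIT3 overlapped between all ages. For DDIT3 the log2 fold changes were -0.35 ± 0.44 (adjusted p = 0.579) from 1 to 12 months and -0.05 ± 0.46 (adjusted p = 0.949) from 1 to 24 months. Without library 2 of the 1-month-old group 6 of the 7 genes rose by 12 months and 4 of 7 by 24 months, and DDIT3 was in neither count. In those fits 21.1% and 14.1% of all genes were higher.

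The ER chaperones and cochaperones had 0 of 11 genes called in both comparisons by edgeR's quasi-likelihood test, with 3 and 2 genes at an unadjusted p under 0.05. DESeq2 and edgeR's exact test each called 2 of the 11 at 12 months and 0 at 24 months. Of all genes DESeq2 called 26.2% and 22.4% there, and the exact test 27.7% and 26.0%. The median log2 fold changes were 0.78 and 0.58. HSPA5, the major ER Hsp70 known as BiP, was at 218, 156 and 333 CPM at 1 month, 547, 327 and 473 CPM at 12 months and 380.4, 401 and 405 CPM at 24 months. Its library 3 at 1 month lay just above library 2 at 12 months. For HSPA5 the log2 fold changes were 0.98 ± 0.38 (adjusted p = 0.110) from 1 to 12 months and 0.84 ± 0.42 (adjusted p = 0.195) from 1 to 24 months. CALR, the calcium-binding lectin chaperone calreticulin, was at 445, 551 and 636 CPM at 1 month, 1275, 649 and 1009 CPM at 12 months and 786, 1236 and 1230.1 CPM at 24 months. Every older library of CALR was above the young ones, the closest pair being 636 and 649 CPM. For CALR the log2 fold changes were 0.88 ± 0.38 (adjusted p = 0.136) from 1 to 12 months and 1.09 ± 0.46 (adjusted p = 0.133) from 1 to 24 months.

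DNAJB9, a J-domain partner of BiP, was at 40.4, 3.54 and 44.0 CPM at 1 month, 155, 132 and 154 CPM at 12 months and 156, 77.7 and 56.0 CPM at 24 months. For DNAJB9 the log2 fold changes were 2.39 ± 0.80 (adjusted p = 0.0801) from 1 to 12 months and 1.82 ± 0.81 (adjusted p = 0.152) from 1 to 24 months. DNAJC3, another J-domain partner of BiP, was at 119, 29.1 and 140.5 CPM at 1 month, 374, 343 and 356 CPM at 12 months and 332, 199 and 138 CPM at 24 months. For DNAJC3 the log2 fold changes were 1.95 ± 0.55 (adjusted p = 0.0519) from 1 to 12 months and 1.31 ± 0.61 (adjusted p = 0.167) from 1 to 24 months. Both had their lowest level in library 2 at 1 month and split into a high library 1 and lower libraries 2 and 3 at 24 months. They were also the 2 of 11 chaperone genes that rose by 12 months without library 2 of the 1-month-old group, at 1.79 (adjusted p = 0.000587) and 1.46 (adjusted p = 0.00117). In that fit 21.1% of all genes were higher. The other 7 genes of this class had log2 fold changes from 1 to 12 months of -0.02 (CRELD2), 0.28 (HYOU1), 0.31 (MANF), 0.45 (DNAJB11), 0.69 (SDF2L1), 0.78 (HSP90B1) and 0.80 (CANX). All had overlapping ages there except CANX, and scaled to total counts HYOU1, MANF and DNAJB11 changed sign. From 1 to 24 months CANX, CRELD2, DNAJB11, HSP90B1, HYOU1 and MANF changed sign with that scaling. By 24 months SDF2L1, a component of the BiP complex, rose without library 2 of the 1-month-old group, at 1.50 (adjusted p = 0.0487), and was at 1.21 ± 0.53 (adjusted p = 0.144) with it.

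Of the 6 genes of disulfide formation 1 rose in each comparison, where 6.15% and 6.79% of all genes were higher. Without library 2 of the 1-month-old group 2 rose in each, where 21.1% and 14.1% of all genes were higher. P4HB, which is protein disulfide isomerase and also a subunit of the collagen prolyl hydroxylase, was at 403, 218 and 434 CPM at 1 month, 1525, 1407 and 1710.3 CPM at 12 months and 1797, 2682 and 2271 CPM at 24 months. The older libraries were all at least 1407 CPM against at most 434 CPM at 1 month. For P4HB the log2 fold changes were 2.19 ± 0.38 (adjusted p = 0.0149) from 1 to 12 months and 2.78 ± 0.53 (adjusted p = 0.0133) from 1 to 24 months. AGR2, an isomerase needed for mucin folding in intestinal goblet cells, was at 111, 0.280 and 63.6 CPM at 1 month, 463, 312 and 356 CPM at 12 months and 486, 288 and 101 CPM at 24 months. In library 2 at 1 month AGR2 was nearly absent. For AGR2 the log2 fold changes were 2.76 ± 1.44 (adjusted p = 0.200) from 1 to 12 months and 2.42 ± 1.39 (adjusted p = 0.253) from 1 to 24 months. Without that library the AGR2 values were 2.11 (adjusted p = 0.00366) and 1.82 (adjusted p = 0.0493). PDIA3, the isomerase that works with calreticulin on glycoproteins, was at 328, 358 and 397 CPM at 1 month, 622, 418 and 549 CPM at 12 months and 459, 588 and 391 CPM at 24 months. For PDIA3 the log2 fold changes were 0.59 ± 0.30 (adjusted p = 0.191) from 1 to 12 months and 0.50 ± 0.40 (adjusted p = 0.419) from 1 to 24 months. PDIA6, a further disulfide isomerase, was at 142, 106 and 205 CPM at 1 month, 321, 194 and 267 CPM at 12 months and 205, 291 and 256 CPM at 24 months. For PDIA6 the log2 fold changes were 0.83 ± 0.35 (adjusted p = 0.128) from 1 to 12 months and 0.83 ± 0.41 (adjusted p = 0.189) from 1 to 24 months. PDIA6 overlapped between 1 month and both older ages, and PDIA3 overlapped between 1 and 24 months. The remaining isomerase PDIA4 and the oxidase ERO1A had log2 fold changes from 1 to 12 months of 0.51 and 0.63 without a call. From 1 to 24 months they were 0.73 and 0.39 without a call. Scaled to total counts PDIA3 and ERO1A changed sign at 24 months.

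Of the 2 ERAD genes SEL1L rose in both comparisons, and EDEM1 had fitted values below 0 that did not pass the test. SEL1L, the adaptor of the HRD1 ubiquitin ligase, was at 153, 79.2 and 136 CPM at 1 month, 606, 437 and 531 CPM at 12 months and 478, 448 and 441 CPM at 24 months. Its lowest older library was 437 CPM against a highest young library of 153 CPM. For SEL1L the log2 fold changes were 2.14 ± 0.35 (adjusted p = 0.0129) from 1 to 12 months and 1.99 ± 0.42 (adjusted p = 0.0177) from 1 to 24 months. EDEM1, which hands misfolded glycoproteins to degradation, was at 346, 940.2 and 211 CPM at 1 month, 191, 154 and 173 CPM at 12 months and 171, 151 and 158 CPM at 24 months. EDEM1 was the gene of the 48 whose older libraries all lay below the young ones, and it was highest in library 2. For EDEM1 the log2 fold changes of -1.53 ± 0.59 (adjusted p = 0.111) from 1 to 12 months and -1.58 ± 0.61 (adjusted p = 0.105) from 1 to 24 months did not pass the test. Without library 2 they were -0.69 (adjusted p = 0.0504) and -0.72 (adjusted p = 0.128). DESeq2 called EDEM1 lower in both comparisons, at -1.59 and -1.63, and so did edgeR with total counts, at -1.87 and -2.14, and the fit of all 9 libraries, at -1.55 and -1.65.

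**Figure D4:**
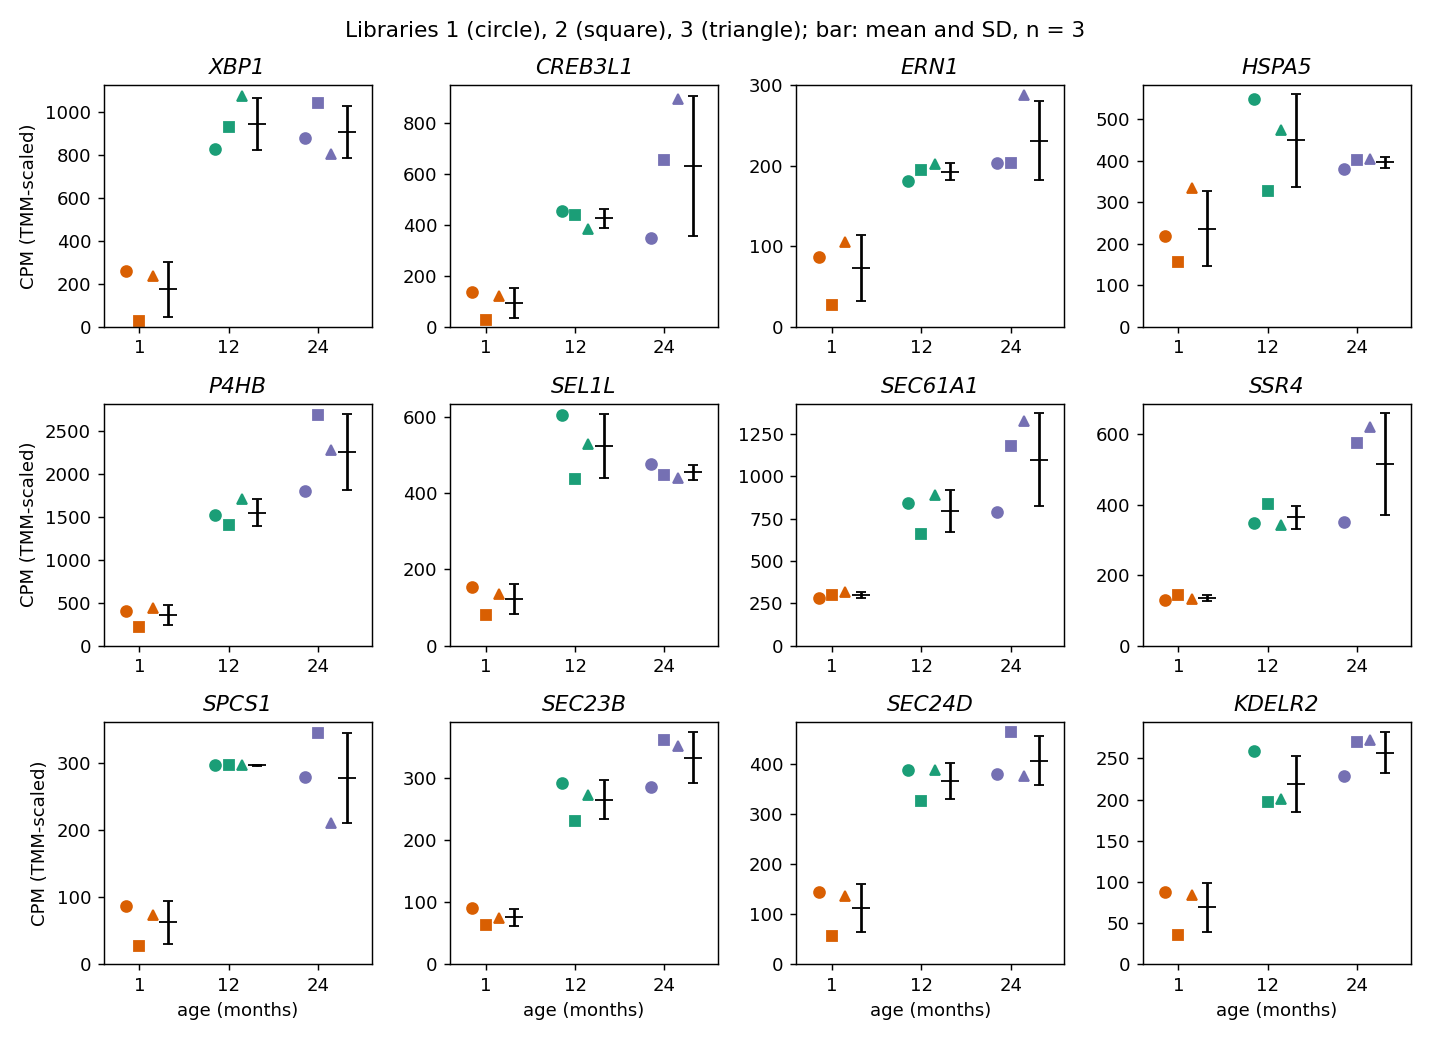
Levels (CPM, TMM-scaled, axes from 0) of 12 of the 48 genes in each library by age, with the mean and SD of 3 libraries beside them. All 3 young libraries lie under all older ones in every panel but HSPA5, and P4HB for example reaches 434 CPM at most at 1 month and 1407 CPM at least later.

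The genes of translocation and signal peptide removal had the most calls of any role, with 9 of 11 genes up by 12 months and 6 of 11 by 24 months. Without library 2 of the 1-month-old group 11 and 6 of 11 rose, where 21.1% and 14.1% of all genes were higher. SSR4, a subunit of the translocon-associated protein complex, was at 129, 144 and 132 CPM at 1 month, 348, 403 and 341 CPM at 12 months and 350.3, 575 and 622 CPM at 24 months. Its 3 young libraries were close together, library 2 included. For SSR4 the log2 fold changes were 1.46 ± 0.26 (adjusted p = 0.0155) from 1 to 12 months and 2.03 ± 0.43 (adjusted p = 0.0185) from 1 to 24 months. SSR2, another subunit of that complex, was at 122, 121 and 139 CPM at 1 month, 274, 223 and 274 CPM at 12 months and 274, 395 and 430.1 CPM at 24 months. For SSR2 the log2 fold changes were 1.05 ± 0.25 (adjusted p = 0.0345) from 1 to 12 months and 1.62 ± 0.40 (adjusted p = 0.0288) from 1 to 24 months. SEC61A1, the channel-forming subunit of the Sec61 complex, was at 280.2, 300.0 and 316 CPM at 1 month, 839, 657 and 891 CPM at 12 months and 790.1, 1181 and 1324 CPM at 24 months. For SEC61A1 the log2 fold changes were 1.45 ± 0.30 (adjusted p = 0.0226) from 1 to 12 months and 1.97 ± 0.45 (adjusted p = 0.0226) from 1 to 24 months. In these 3 genes library 2 at 1 month did not stand out, and the values without it were 1.47 (adjusted p = 0.00115), 0.97 (adjusted p = 0.00490) and 1.41 (adjusted p = 0.00278) for 12 months.

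SPCS1, a non-catalytic subunit of the signal peptidase, was at 87.4, 26.6 and 73.5 CPM at 1 month, 296, 296 and 297 CPM at 12 months and 278, 344 and 210.4 CPM at 24 months. For SPCS1 the log2 fold changes were 2.30 ± 0.45 (adjusted p = 0.0197) from 1 to 12 months and 2.26 ± 0.52 (adjusted p = 0.0226) from 1 to 24 months. SPCS1 was nearly equal in the 12-month libraries, while library 2 at 1 month was far below the other young ones. SEC11C, a catalytic subunit of the same enzyme, rose by 2.29 ± 0.56 (adjusted p = 0.0353) and 2.14 ± 0.59 (adjusted p = 0.0419) on the log2 scale. SSR3 rose by 1.09 ± 0.28 (adjusted p = 0.0404) and 1.37 ± 0.40 (adjusted p = 0.0481). SEC63, SSR1 and SPCS2 rose by 12 months, by 1.51, 1.14 and 1.00 on the log2 scale. At 24 months they had values of 0.97, 1.04 and 0.94 that did not pass the test. SEC61B and SEC62 had log2 fold changes of 0.75 and 1.55 at 12 months and 0.82 and 0.86 at 24 months without a call.

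In the COPII coat 3 of 6 genes rose in each comparison, SEC23B, SEC24D and SEC31A. Without library 2 of the 1-month-old group 5 of 6 rose by 12 months, with SAR1A and SAR1B, and 3 of 6 by 24 months. In those fits 21.1% and 14.1% of all genes were higher. SEC23B, an inner coat subunit, was at 89.6, 62.8 and 73.7 CPM at 1 month, 291, 230.2 and 273 CPM at 12 months and 285, 361 and 351 CPM at 24 months. It had the smallest adjusted p of the 48 genes in both comparisons. For SEC23B the log2 fold changes were 1.85 ± 0.27 (adjusted p = 0.0107) from 1 to 12 months and 2.24 ± 0.39 (adjusted p = 0.0103) from 1 to 24 months. SEC24D, a cargo-binding inner coat subunit, was at 145, 57.4 and 136 CPM at 1 month, 388, 326 and 387 CPM at 12 months and 381, 464 and 377 CPM at 24 months. For SEC24D the log2 fold changes were 1.76 ± 0.39 (adjusted p = 0.0281) from 1 to 12 months and 1.96 ± 0.47 (adjusted p = 0.0257) from 1 to 24 months. SEC31A, of the outer coat, was at 169.7, 151 and 190.2 CPM at 1 month, 360.0, 368 and 363 CPM at 12 months and 361, 469 and 489 CPM at 24 months. For SEC31A the log2 fold changes were 1.13 ± 0.25 (adjusted p = 0.0278) from 1 to 12 months and 1.46 ± 0.39 (adjusted p = 0.0369) from 1 to 24 months. The older libraries of these genes all exceeded the young ones. The small GTPase SAR1A, which starts coat assembly, was at 126, 52.9 and 109.8 CPM at 1 month, 203, 189 and 181 CPM at 12 months and 221, 168 and 108 CPM at 24 months. For SAR1A the log2 fold changes were 1.04 ± 0.35 (adjusted p = 0.0805) from 1 to 12 months and 0.88 ± 0.45 (adjusted p = 0.211) from 1 to 24 months. SAR1B had log2 fold changes of 1.59 and 0.85 without a call. Without library 2 the values for 12 months were 0.70 (adjusted p = 0.00826) for SAR1A and 1.05 (adjusted p = 0.00260) for SAR1B. SEC23A, the paralogue of SEC23B, was at 35.7, 16.1 and 37.1 CPM at 1 month, 27.4, 26.3 and 32.2 CPM at 12 months and 27.7, 17.7 and 19.7 CPM at 24 months and overlapped between all ages. For SEC23A the log2 fold changes were 0.00 ± 0.35 (adjusted p = 0.997) from 1 to 12 months and -0.36 ± 0.42 (adjusted p = 0.582) from 1 to 24 months. The SEC23A value at 12 months was negative with DESeq2's size factors, upper-quartile scaling, total counts and library sizes without the 100 most abundant genes.

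SEC31A changed in its transcripts as well as in its sum. The transcript XM_018049659.1 was at 13.4, 0 and 1.06 CPM at 1 month, 164, 191 and 157 CPM at 12 months and 173, 218 and 193 CPM at 24 months. The newly assembled TCONS_00021015 was at 24.2, 34.4 and 56.4 CPM at 1 month, 4.33, 2.87 and 5.22 CPM at 12 months and 3.12, 4.13 and 4.62 CPM at 24 months. The share of the gene's CPM in XM_018049659.1 was 7.80%, 0% and 0.541% in the 1-month libraries and between 40.2% and 51.7% later, while that of TCONS_00021015 was 14.1% to 28.9% at 1 month and 0.778% to 1.44% later. Tested singly among 31468 and 30377 transcripts, of which 2.63% and 1.47% were called, TCONS_00021015 fell by 3.18 ± 0.46 on the log2 scale to 12 months (adjusted p = 0.0378) and by 3.19 ± 0.50 to 24 months (adjusted p = 0.0437). XM_018049659.1 had log2 fold changes of 5.19 ± 1.83 and 5.42 ± 1.84 that did not pass the test. Of the transcripts of the 48 genes, 92 were tested for 12 months and 5 rose and 1 fell, in SEL1L, SSR4, SEC23B, SEC24D and SEC31A. For 24 months 94 were tested and 2 rose and 1 fell. How the expected counts split reads between transcripts that share exons is uncertain.

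**Figure D5:**
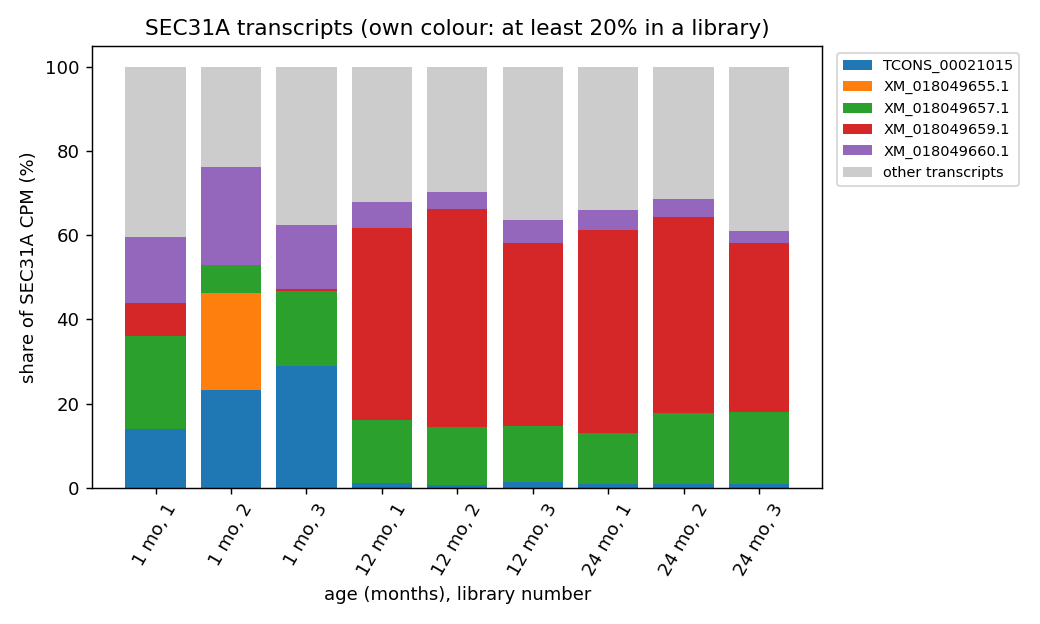
Share (%) of the CPM of SEC31A held by its transcripts in each of the 9 libraries, with a colour of its own for each transcript that reached 20% in a library. XM_018049659.1 holds 7.80% at most in the 1-month libraries and at least 40.2% in the others, and TCONS_00021015 falls from at least 14.1% to at most 1.44%.

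Of the 5 cargo receptors and retrieval genes 3 rose by 12 months and 1 by 24 months. Without library 2 of the 1-month-old group 5 and 4 rose, where 21.1% and 14.1% of all genes were higher. DESeq2 and edgeR's exact test each called 4 higher by 12 months and 3 by 24 months. Of all genes DESeq2 called 26.2% and 22.4% there, and the exact test 27.7% and 26.0%. KDELR2, a receptor that returns escaped ER proteins from the Golgi, was at 87.3, 35.3 and 84.4 CPM at 1 month, 258, 197 and 201 CPM at 12 months and 229, 270.2 and 272 CPM at 24 months. For KDELR2 the log2 fold changes were 1.72 ± 0.39 (adjusted p = 0.0287) from 1 to 12 months and 2.0 ± 0.45 (adjusted p = 0.0215) from 1 to 24 months. The cargo receptor TMED2 of the p24 family was at 282, 113 and 277 CPM at 1 month, 848, 706 and 825 CPM at 12 months and 767, 764 and 423 CPM at 24 months. For TMED2 the log2 fold changes were 1.88 ± 0.41 (adjusted p = 0.0267) from 1 to 12 months and 1.64 ± 0.51 (adjusted p = 0.0590) from 1 to 24 months. Its partner TMED10 was at 255, 119 and 244 CPM at 1 month, 629, 519 and 597 CPM at 12 months and 609, 583 and 447 CPM at 24 months. For TMED10 the log2 fold changes were 1.55 ± 0.36 (adjusted p = 0.0323) from 1 to 12 months and 1.50 ± 0.45 (adjusted p = 0.0521) from 1 to 24 months. In all of them the young libraries lay below the older ones, and library 2 was the lowest of them. LMAN1, a lectin that carries glycoproteins out of the ER, was at 266, 41.0 and 225 CPM at 1 month, 750.4, 629.6 and 761 CPM at 12 months and 773, 462 and 359.6 CPM at 24 months. For LMAN1 the log2 fold changes were 2.07 ± 0.64 (adjusted p = 0.0668) from 1 to 12 months and 1.68 ± 0.68 (adjusted p = 0.120) from 1 to 24 months. KDELR3, a paralogue of KDELR2, was at 1.86 CPM in library 2 and 44.7 and 47.7 CPM in the other young libraries. For KDELR3 the log2 fold changes were 2.08 ± 0.96 (adjusted p = 0.157) from 1 to 12 months and 1.96 ± 0.92 (adjusted p = 0.169) from 1 to 24 months. Without library 2 the KDELR3 values were 1.46 (adjusted p = 0.00132) and 1.38 (adjusted p = 0.0215).

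The other genes of the pathway, a list of 111 that excludes the 48, had 109 found and 107 tested. From 1 to 12 months 27 rose and 1 fell, against 6.15% and 12.0% of all genes. The median log2 fold change was 0.84, and -0.05 over all genes. From 1 to 24 months 19 rose and 0 fell, against 6.79% and 10.9% of all genes. The median was then 1.03, and -0.04 over all genes. Scaled to total counts 3 rose and 3 fell by 12 months and 2 rose and 4 fell by 24 months, where 23.4% and 24.4% of all genes were called. Without library 2 of the 1-month-old group 75 rose and 3 fell by 12 months, where 43.7% of all genes were called and 21.1% were higher. By 24 months 49 rose and 2 fell without it, where 29.5% of all genes were called and 14.1% were higher. DERL2, an ERAD channel component, was at 38.6, 20.5 and 33.0 CPM at 1 month, 136, 177 and 158 CPM at 12 months and 169, 205 and 207 CPM at 24 months. For DERL2 the log2 fold changes were 2.40 ± 0.31 (adjusted p = 0.00867) from 1 to 12 months and 2.76 ± 0.40 (adjusted p = 0.00649) from 1 to 24 months. HERPUD1, an ERAD cofactor induced by the UPR, was at 86.4, 109 and 117 CPM at 1 month, 241, 266 and 247 CPM at 12 months and 267, 257 and 314 CPM at 24 months. For HERPUD1 the log2 fold changes were 1.31 ± 0.26 (adjusted p = 0.0209) from 1 to 12 months and 1.51 ± 0.37 (adjusted p = 0.0292) from 1 to 24 months. In both genes every older library was above every young one.

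Further called genes of that list came from each role but the sensors and transcription factors, where edgeR's quasi-likelihood test called 0 of 10 in both comparisons and 2 had an unadjusted p under 0.05. DESeq2, which tested 11, called 0 at 12 months and 4 higher at 24 months, and edgeR's exact test called 0 and 1 of 10. Of all genes DESeq2 called 26.2% and 22.4% there, and the exact test 27.7% and 26.0%. The isomerase-like ERP29 had log2 fold changes of 1.52 ± 0.32 (adjusted p = 0.0242) from 1 to 12 months and 1.73 ± 0.41 (adjusted p = 0.0253) from 1 to 24 months. The peroxiredoxin PRDX4 had values of 1.38 ± 0.38 (adjusted p = 0.0498) from 1 to 12 months and 1.39 ± 0.44 (adjusted p = 0.0638) from 1 to 24 months. The nucleotide exchange factor SIL1 of BiP had values of 1.22 ± 0.25 (adjusted p = 0.0217) from 1 to 12 months and 1.38 ± 0.35 (adjusted p = 0.0308) from 1 to 24 months. The J-domain protein DNAJC1 had values of 1.50 ± 0.29 (adjusted p = 0.0197) from 1 to 12 months and 1.18 ± 0.40 (adjusted p = 0.0748) from 1 to 24 months. The oligosaccharyltransferase subunit DAD1 had values of 1.09 ± 0.23 (adjusted p = 0.0243) from 1 to 12 months and 1.49 ± 0.35 (adjusted p = 0.0237) from 1 to 24 months. SRPRA, a subunit of the signal recognition particle receptor, had values of 1.33 ± 0.28 (adjusted p = 0.0251) from 1 to 12 months and 1.71 ± 0.42 (adjusted p = 0.0282) from 1 to 24 months. SRP54, a subunit of the particle, had values of 1.67 ± 0.38 (adjusted p = 0.0303) from 1 to 12 months and 1.19 ± 0.45 (adjusted p = 0.102) from 1 to 24 months. Of the coat and its organisers, MIA3 had values of 2.22 ± 0.49 (adjusted p = 0.0271) from 1 to 12 months and 2.10 ± 0.54 (adjusted p = 0.0337) from 1 to 24 months. TFG had values of 1.55 ± 0.23 (adjusted p = 0.0110) from 1 to 12 months and 1.66 ± 0.35 (adjusted p = 0.0184) from 1 to 24 months and SEC24A of 1.25 ± 0.29 (adjusted p = 0.0319) from 1 to 12 months and 1.18 ± 0.38 (adjusted p = 0.0673) from 1 to 24 months. Among cargo receptors TMED3 had values of 1.59 ± 0.24 (adjusted p = 0.0110) from 1 to 12 months and 2.20 ± 0.41 (adjusted p = 0.0125) from 1 to 24 months and SURF4 of 1.26 ± 0.26 (adjusted p = 0.0221) from 1 to 12 months and 1.85 ± 0.42 (adjusted p = 0.0215) from 1 to 24 months. COPG1, of the retrograde COPI coat, had values of 1.17 ± 0.32 (adjusted p = 0.0497) from 1 to 12 months and 1.88 ± 0.48 (adjusted p = 0.0325) from 1 to 24 months. EDEM2, related to EDEM1, had values of 1.21 ± 0.28 (adjusted p = 0.0309) from 1 to 12 months and 1.58 ± 0.36 (adjusted p = 0.0217) from 1 to 24 months. UGGT2, a glucosyltransferase of glycoprotein quality control, was the gene that fell by 12 months, from 12.3, 9.05 and 8.21 CPM to 2.77, 2.42 and 1.41 CPM, a log2 fold change of -2.13 ± 0.41 (adjusted p = 0.0188), and was at 4.19, 0.397 and 0.919 CPM at 24 months.

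Between 12 and 24 months 0 of the 48 genes and 0 of all 14148 genes tested, 0%, were called by edgeR's quasi-likelihood test. Of the 48 genes 3 had an unadjusted p under 0.05, against 11.3% of all genes. DESeq2 and edgeR's exact test also called 0 of the 48, where they called 0.166% and 0.184% of all genes. The median log2 fold change was -0.05 for the 48 genes and 0.03 for all genes. In 2 genes the 24-month libraries lay entirely above and in 3 entirely below the 12-month libraries, against 7.69% and 7.80% of all genes. Library 1 of the 24-month-old group lay apart from libraries 2 and 3. In that library DNAJB9, DNAJC3, AGR2, SEC62, SEC63, SAR1B and LMAN1 were more than 1.5 times both others, and CREB3L1, HYOU1, CALR, SDF2L1, CRELD2, PDIA4 and SSR4 were lower than both others by as much. Duct markers (7 genes) summed to 546 CPM in library 1 against 1189.8 and 1374 CPM in libraries 2 and 3, and plasma cell markers to 1858 CPM against 858 and 1092 CPM. Most of the plasma cell sum was JCHAIN, at 1796 CPM against 748 and 964 CPM. The other plasma cell genes, MZB1, TNFRSF17, IRF4, PRDM1 and POU2AF1, were each lower in library 1 than in libraries 2 and 3. The part of duct and plasma cells in these values was not tested.

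Without library 1 of the 24-month-old group, 14 of the 48 genes were called between 12 and 24 months, where 32.7% of all genes were called, 18.1% higher and 14.6% lower. CREB3L1, SSR4, SSR2, P4HB, SEC61A1 and SDF2L1 were higher at 24 months and SEC62, SAR1B, DNAJB9, SEC63, DNAJC3, LMAN1, HSP90B1 and SEC23A were lower. SEC62, which helps translocation together with SEC63, was at 214, 247 and 226 CPM at 12 months and at 251, 74.2 and 93.3 CPM at 24 months. Its log2 fold change was -0.68 ± 0.41 with all libraries and -1.40 (adjusted p = 0.00809) without library 1. CREB3L1 was at 384 to 453 CPM at 12 months and at 347, 654 and 893 CPM at 24 months, with values of 0.62 ± 0.33 (adjusted p = 0.424) and 0.91 (adjusted p = 0.0133). The transcript XM_018056436.1 of DNAJC3 was at 178 to 224 CPM at 12 months and at 172, 0 and 5.42 CPM in the 24-month libraries. Which of the 24-month libraries is typical of the age cannot be told apart with 3 goats.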

How the data were processed

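The values are expected counts per transcript that the authors obtained with RSEM and deposited for 9 libraries. The submitters' notes name Bowtie2 2.2.8, TopHat2 2.1.1 and Cufflinks, and the genome build is not given in the sources used here. The deposited expected counts, which include fractions, had been multiplied by a factor of 0.439 to 1.17 that differed between libraries and was estimated from the low values. After division by this factor 32.5% to 38.4% of low values were whole within 0.006, against 0.597% to 0.929% as deposited in all libraries but library 2 at 12 months (6.39%) and library 3 at 24 months (34.1%, whose factor was 1.00). The divided counts were rounded and summed per gene.

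Names came from the table and from RefSeq, where 42652 transcripts matched by gene ID, 7510 by symbol, 1010 by symbol in another case, 5 by an older symbol, 567 by protein accession, 529 had a symbol absent from RefSeq, 432 had none and 34 did not match. Each pair of ages was tested with its 6 libraries in edgeR 4.0.16 (R 4.3.3) with filterByExpr, TMM, glmQLFit and glmQLFTest, and Benjamini-Hochberg adjustment over all genes tested. Calls were made below an adjusted p of 0.05, and the study's absolute log2 fold change over 2 was counted beside it. Signs are older minus younger. The SE given with a log2 fold change is its absolute value divided by the square root of the test's F statistic. The test was tried on simulated counts with 200 changed genes, where it called 64 of the 8-fold and 0 of the 2-fold changes for 1 against 12 months, and 100 and 18 for 12 against 24 months. It called 66 and 132 genes in all there, of which 64 and 118 were changed ones.

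Alternatives were other scalings, DESeq2 1.42.0, edgeR's exact test, no filter, all 9 libraries in one fit, a replicate block, each library left out, single transcripts and, chosen after seeing the data, the values as deposited. The 48 genes and the lists of other pathway genes and markers were chosen with earlier results of these data known. Values per library are given for XBP1, ATF4, ATF6, ERN1, DDIT3 and HSPA5. In each role they are also given for up to 4 genes with the smallest unadjusted p against 1 month. SEC23A was added after its values were seen. Library values or ranges of SEC62, KDELR3 and ERN2 and the transcript values of SEC31A and DNAJC3 also lie outside this rule. Of other pathway genes up to 3 called genes per role are named by the same p. Not found were MAN1B1 and MIA2 of 111 other pathway genes, and 74 of 79 markers were found. Sequences were not analysed here.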

Additional observations from a re-analysis of the deposited data

How the results depend on the processing

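Total counts as library sizes moved the median log2 fold change of all genes to -0.52 (12 months), -0.71 (24 months) and -0.17 (12 to 24 months). The calls among the 48 genes were then 6 and 4 against 1 month, those among other pathway genes 6 and 6, and the summed level of the 48 genes changed by 0.80, 0.67 and -0.13 on the log2 scale instead of 1.25, 1.28 and 0.03. Adding the fold threshold left 5 and 7 of the 48 genes, and testing transcripts singly left 5 and 3. Among other pathway genes DESeq2 called 43 and 37, where it called 26.2% and 22.4% of all genes. At 24 months the exact test called 34 of them (26.0% of all genes) and the fit of all 9 libraries 45 (29.2% of all genes). Without a filter 18 were called at 12 months, and 13.4% of all genes. Of the 48 genes DESeq2 called 26 and 19, and the exact test 24 and 17, where it called 27.7% and 26.0% of all genes.

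Replicate numbers did not pair the goats: deviations of same-numbered libraries from their group means correlated at -0.17 to 0.34 over 9 pairs (median -0.09). With the numbers as a replicate block 2 and 10 of the 48 genes and 1 and 11 other pathway genes were called, where 889 of 15068 and 2220 of 14834 genes in all were called.

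With 1 library left out, calls among the 48 genes ran from 0 to 32 for 12 months, from 0 to 21 for 24 months and from 0 to 14 between 12 and 24 months, and among other pathway genes from 0 to 78, from 1 to 51 and from 0 to 45. The share of all genes called ran from 0% to 43.7%, from 1.92% to 29.5% and from 0% to 32.7%. No single gene's called change reversed its sign. Size factors, upper-quartile scaling, library sizes without the 100 most abundant genes and the values as deposited kept the counts of the 48 genes within 1.5 times, at 14 to 19 and 11 to 15. For 1 against 12 months none of the simulated 2-fold changes was called, and 43 had an unadjusted p under 0.05. Only 200 of 14846 genes were changed there, while 18.1% were called in the data, so the adjustment was stricter in the simulation. In the data SPCS2 was called at a log2 fold change of 1.00 and SAR1A at 1.04 was not. Genes without a call at 12 months may still differ by 2-fold.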
